A study of Mus musculus with 12 samples.

Results

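The 10 genes described here encode the caseins and other abundant proteins of mouse milk. They are the 5 casein genes Csn1s1, Csn1s2a, Csn1s2b, Csn2 and Csn3, the whey protein gene Wap, and Glycam1, Trf, Cel and Muc15. They were taken by gene symbol from the authors' limma voom table of 11834 genes, and all 10 were found in it. Their levels were measured by polyA RNA sequencing of the lactating mammary gland in 5 wild-type (WT) mice and 7 mice homozygous for a knockout (KO) of Btn1a1 (labelled Btn1a1-/-), all of strain C57BL/6. Butyrophilin 1a1 sits in the apical membrane of the alveolar cell and is carried out on the coat of the milk fat globule. All glands were in lactation 1. WT replicates 1, 4 and 5 were taken on day 10, WT replicate 2 on day 9 and WT replicate 3 on day 11. KO replicates 1, 2, 5, 6 and 7 were taken on day 10, KO replicate 3 on day 8 and KO replicate 4 on day 11. The labels name no other allele and no treatment. Each library is 1 mouse. Per the labels, the mutant line was kept by mating heterozygotes, apart from the wild-type mice, and 2 diets were in use without a record of which mouse ate which. Genotype, breeding line and diet therefore cannot be told apart.

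Caseins are secreted calcium-binding phosphoproteins. The alpha caseins (Csn1s1, Csn1s2a, Csn1s2b) and beta casein (Csn2) carry clusters of phosphoserines that hold calcium phosphate, and kappa casein (Csn3) covers the surface of the casein micelle and keeps it in suspension. The genes are induced in the secretory alveolar cell by prolactin, acting through its receptor, Jak2 and Stat5, together with glucocorticoid and contact with the basement membrane. Wap, the main whey protein of rodents, follows the same hormones. In a lactating rodent gland these few messages make up most of the mRNA.

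The table bears a limit on these genes that comes before any result. Its 12 library columns give expression as log2 CPM (reads per gene on a scale shared by all libraries) and bear the mark of quantile normalization, a step that gives the gene at a given rank the same value in every library. For the first 60 ranks the values were equal in the 12 libraries. For an abundant gene, the table thus holds its rank in each library and little else, and a rise or fall that left the order as it was cannot be seen. The rank is the number of the gene in the order of log2 CPM within a library, 1 being the highest. The estimated depth, read from the step between low values shared by several genes, ran from 17.1 to 30.4 M reads in WT and from 23.2 to 34.7 M in KO. It is rough, because the normalization alters that step, and no counting interval is given. In a whole gland, fewer cells of a type and less RNA per cell cannot be told apart. All 10 listed luminal secretory markers were measured. Btn1a1 itself averaged 11.07 ± 0.09 log2 CPM (SD, n = 5) over WT and 5.63 ± 0.30 (SD, n = 7) over KO mice, a fall by 5.43 (SE 0.13, limma adjusted p = 5.2e-13), and it went from ranks 19 to 21 in WT to ranks 604 to 1406 in KO.

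The 5 casein genes lie in a cluster of 266 kb on mouse chromosome 5, from 87666208 to 87932665 (mm10, GENCODE M21). In order along the chromosome they are Csn1s1, Csn2 (on the minus strand, from 87692624 to 87699630), Csn1s2a, Csn1s2b and Csn3. Wap lies on chromosome 11 (6635482 to 6638637), Glycam1 on chromosome 15 (103562759 to 103565081) and Trf on chromosome 9 (103204001 to 103230444). Cel (28555795 to 28563403) and Muc15 (110721340 to 110739527) both lie on chromosome 2. Promoter sequence from RefSeq (GRCm38.p6, the assembly of mm10) was at hand for 6 of the 10 genes, namely Cel, Csn1s1, Csn1s2a, Csn2, Glycam1 and Wap. The palindrome TTCNNNGAA, the pattern that Stat5 binds, reads the same on both strands. It was sought in the window from 250 bases before to 50 bases after each start site. It was found once each in Csn1s1, Csn1s2a, Csn2 and Glycam1, and these letters are not in the windows of Wap and Cel. Of all 32851 promoter windows in the table, which can hold several starts of a gene, 8.30% hold the pattern. A match is a description of the letters and not evidence of binding. The full palindromic patterns of nuclear factor I and of the glucocorticoid receptor, sought likewise on both strands, were found in 0 of the 6 windows and in 0.0365% and 0.475% of all windows.

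The 250 bases before the start site are shown 5′ to 3′ on the gene's strand for genes at ranks 1, 2, 4 and 8 of all WT libraries, with matches to TTCNNNGAA in capitals. For Csn1s2a, whose match begins at base 21 after the RefSeq start site, 29 bases around it are shown. Counted from the RefSeq start site, the match begins at -93 in Csn2, at -100 in Csn1s1 and at -145 in Glycam1. The RefSeq start of Csn2 lies inside the GENCODE gene, so its stretch overlaps that gene model. For Csn1s2a the GENCODE gene starts at 87774567, after the RefSeq start, so its match lies before that gene model. Csn1s1 and Csn1s2a hold the same 9 letters.
Csn2 (chr5:87699426-87699675, minus strand): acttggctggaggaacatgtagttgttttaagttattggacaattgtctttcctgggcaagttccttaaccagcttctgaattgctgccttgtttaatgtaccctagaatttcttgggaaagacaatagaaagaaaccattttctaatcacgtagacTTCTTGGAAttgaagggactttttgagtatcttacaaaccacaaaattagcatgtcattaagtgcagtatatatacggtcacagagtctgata
Csn1s1 (chr5:87665958-87666207, plus strand): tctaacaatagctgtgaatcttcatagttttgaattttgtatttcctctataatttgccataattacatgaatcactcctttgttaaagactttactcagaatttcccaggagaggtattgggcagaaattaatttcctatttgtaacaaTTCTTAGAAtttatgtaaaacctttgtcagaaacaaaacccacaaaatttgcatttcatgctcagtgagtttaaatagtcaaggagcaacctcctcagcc
Wap (chr11:6638650-6638899, minus strand): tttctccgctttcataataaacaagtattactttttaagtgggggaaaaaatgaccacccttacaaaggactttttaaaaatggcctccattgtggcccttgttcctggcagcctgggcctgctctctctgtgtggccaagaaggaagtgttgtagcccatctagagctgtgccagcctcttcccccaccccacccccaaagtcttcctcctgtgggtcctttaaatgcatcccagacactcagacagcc
Glycam1 (chr15:103565082-103565331, minus strand): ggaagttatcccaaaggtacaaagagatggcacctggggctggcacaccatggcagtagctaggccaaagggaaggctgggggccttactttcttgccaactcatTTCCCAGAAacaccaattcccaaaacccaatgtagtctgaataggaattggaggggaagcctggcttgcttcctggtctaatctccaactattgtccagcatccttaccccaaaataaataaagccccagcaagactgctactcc
Csn1s2a (chr5:87774460-87774488, plus strand): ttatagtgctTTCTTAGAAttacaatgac

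The first comparison asked where these genes stood in each library. In all 5 WT libraries the order was the same, with Csn2 at rank 1, Csn1s1 at 2, Csn1s2a at 3, Wap at 4, Csn1s2b at 5, Csn3 at 6, Trf at 7 and Glycam1 at 8. Trf encodes transferrin, the iron carrier, and Glycam1 a mucin-like glycoprotein that is secreted into milk. KO replicates 3, 5, 6 and 7 held this same order, so that 9 of the 12 libraries shared it. No other gene entered the first 8 ranks in any of the 12 libraries. The value at rank 8 stood 2.72-fold above that at rank 9. As plotted in the chart of ranks by library, the order differed in KO replicates 1, 2 and 4 alone.

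**Figure D1:**
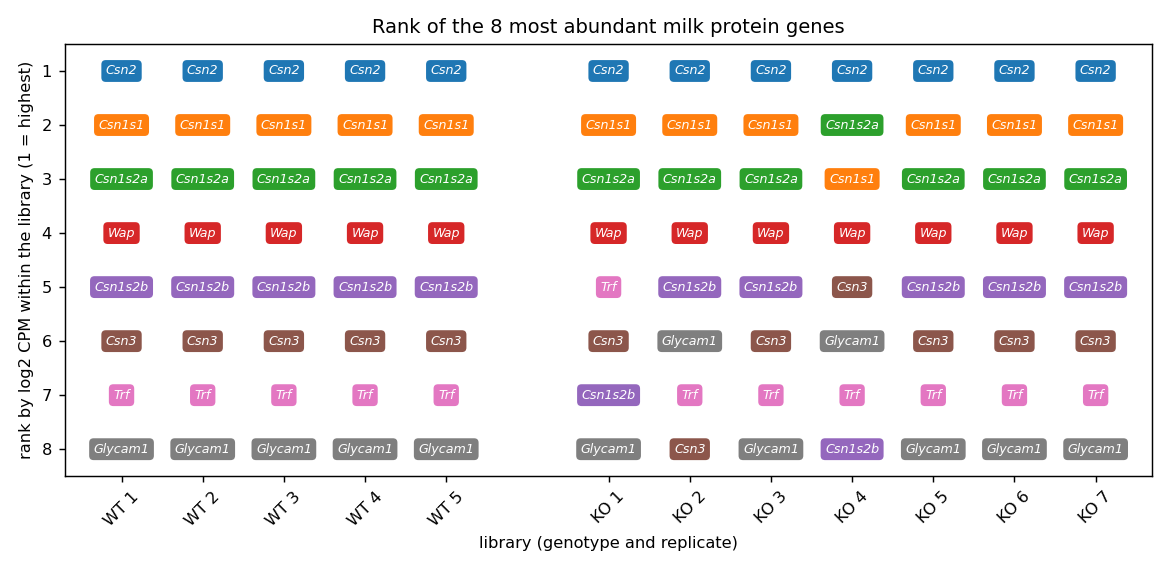
Rank of the 8 most abundant genes (vertical axis, 1 is the highest log2 CPM) in each of 5 WT and 7 KO libraries (horizontal axis), 1 label per gene. Csn2 and Wap keep ranks 1 and 4 in all 12 libraries, and the other 6 genes leave their WT rank in KO replicates 1, 2 or 4.

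Csn2 held rank 1 and 17.27 log2 CPM in all 12 libraries, and Wap held rank 4 and 16.54 log2 CPM. For these 2 genes the log2 change is 0 by construction and shows only that no neighbour passed them. Csn1s1 stood at 17.16 log2 CPM (rank 2) in 11 libraries and at 17.00 (rank 3) in KO replicate 4. Csn1s2a was its mirror image, at rank 3 in 11 libraries and at rank 2 in KO replicate 4. The step between these ranks is 0.16 on the log2 scale, and it would be the same had the raw levels crossed by a wide or a narrow margin.

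Csn1s2b, the second gene of the alpha-s2 pair, held 15.90 log2 CPM (rank 5) in all 5 WT libraries and in 5 KO libraries. It stood at 15.20 (rank 7) in KO replicate 1 and at 14.35 (rank 8) in KO replicate 4, below all WT libraries in these 2 of 7. Csn3 held 15.57 (rank 6) in all WT libraries and in 5 KO libraries, with 14.35 (rank 8) in KO replicate 2 and 15.90 (rank 5) in KO replicate 4. Csn1s2b and Csn3 were thus each the last of the 8 in a different KO gland. Csn1s2a and Csn1s2b are related genes, and the sources used here do not say how reads that match both were divided.

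Trf stood at 15.20 log2 CPM (rank 7) in 11 libraries and at 15.90 (rank 5) in KO replicate 1, where it passed Csn3 and Csn1s2b. Glycam1 stood at 14.35 (rank 8) in all WT libraries and in 5 KO libraries, and at 15.57 (rank 6) in KO replicates 2 and 4. In KO replicate 2 both Glycam1 and Trf lay above Csn3. In KO replicate 4 Csn3, Glycam1 and Trf all lay above Csn1s2b, and Glycam1 lay above Trf. These statements of order are by CPM and not per length of the message. Quantile normalization keeps the order by CPM within a library.

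Of the 28 pairs among the 8 genes, 3 were turned against the WT order in KO replicate 1, 3 in KO replicate 2 and 5 in KO replicate 4. The number was 0 in every other library. The order of the WT libraries is the reference here, so these counts are a description with no test. The share of the CPM sum taken by the 5 caseins was 55.2% in the 9 libraries of common order, 52.8% in KO replicate 1 and 52.3% in KO replicates 2 and 4. These shares follow from the ranks and the fixed value of each rank, so they are not measured shares of reads. The 3 glands were taken on day 10 (KO replicates 1 and 2) and day 11 (KO replicate 4).

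Levels of different genes can be compared only per length. Dividing the WT mean CPM by the length of the longest principal coding transcript in GENCODE M21 gave 172592 CPM per kb for Wap, 142136 for Csn1s2a, 119201 for Csn2 and 103591 for Csn1s1. The short Wap message, of 551 bases, thus led the 10 genes per length while standing at rank 4 by CPM. With the shortest principal transcript in its place, Csn2 led with 177998 CPM per kb, and Wap came next. Trf, whose message has 2571 bases, stood at 14597 CPM per kb, below Glycam1 at 33236. Cel and Muc15 were last under either length, with 693 and 251 CPM per kb under the longest. The sources used here do not state the lengths the authors used, and the CPM of the first 8 genes are the fixed values of their ranks. The order per length is thus approximate.

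The second comparison asked whether any of the 10 genes differed between KO and WT. By limma on the deposited log2 CPM, with Benjamini-Hochberg adjustment across the 11834 genes, 0 of the 10 passed an adjusted p under 0.05. Over all genes 9.36% passed, 4.84% higher and 4.52% lower in KO. None of the 10 had an unadjusted p under 0.05 in limma, and 0 passed in the authors' deposited table, where 9.64% of genes did. The share of all genes with an unadjusted p under 0.05 is not given here, so counts at that p have no background. For 0 of the 10 did the KO and WT libraries not overlap, against 5.43% of all genes. The median log2 change was 0 for the 10 genes and -0.03 for all genes. For the first 8 genes this says little, since a level fixed by rank could not have moved without passing a neighbour.

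Among the 8, the largest difference in size was that of Glycam1, at 0.35 on the log2 scale (SE 0.24, limma adjusted p = 0.381). It was 0.20 without KO replicate 2 or without KO replicate 4. That of Csn1s2b was -0.32 (SE 0.25, limma adjusted p = 0.433), and -0.12 without KO replicate 4. Without KO replicate 2 the difference of Csn1s2b, -0.38, was the larger of the pair in size. Csn3 gave -0.13 (SE 0.21, limma adjusted p = 0.744) and 0.055 without KO replicate 2, so its sign rests on that 1 library. Trf gave 0.10 (SE 0.14, limma adjusted p = 0.700), and the value was 0 without KO replicate 1. The differences of Csn1s1 and Csn1s2a, -0.02 and 0.02, rest on KO replicate 4 in the same way. The SE of a gene with equal values comes mostly from the spread that limma borrows from other genes.

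Cel and Muc15 stand lower in the order, where neighbouring ranks lie closer, so their values are freer to vary. Cel encodes the bile salt-stimulated lipase that is secreted into milk and helps the young to digest milk fat. It stood at 10.51, 10.51, 10.36, 10.42 and 10.59 log2 CPM in WT replicates 1 to 5, and between 10.30 and 10.86 in KO, with a median of 10.59. KO replicates 1, 3 and 7 lay above all WT libraries and KO replicate 4 lay below them, so the groups overlapped. The means were 10.48 ± 0.09 (SD, n = 5) and 10.58 ± 0.21 (SD, n = 7), a difference of 0.10 (SE 0.11, limma adjusted p = 0.572). It was higher in KO than any WT library in 3 of 7 libraries.

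Muc15 encodes a membrane mucin of the milk fat globule. It stood at 9.69, 9.62, 9.69, 9.95 and 9.76 log2 CPM in WT replicates 1 to 5, and between 9.26 and 9.89 in KO, with a median of 9.69. KO replicates 1, 2 and 3 lay below all WT libraries, and no KO library lay above them. The means were 9.74 ± 0.12 (SD, n = 5) and 9.62 ± 0.23 (SD, n = 7), a difference of -0.12 (SE 0.11, limma adjusted p = 0.522). As the plot of both genes by library shows, the differences between the means were smaller than the SD of the KO libraries.

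**Figure D2:**
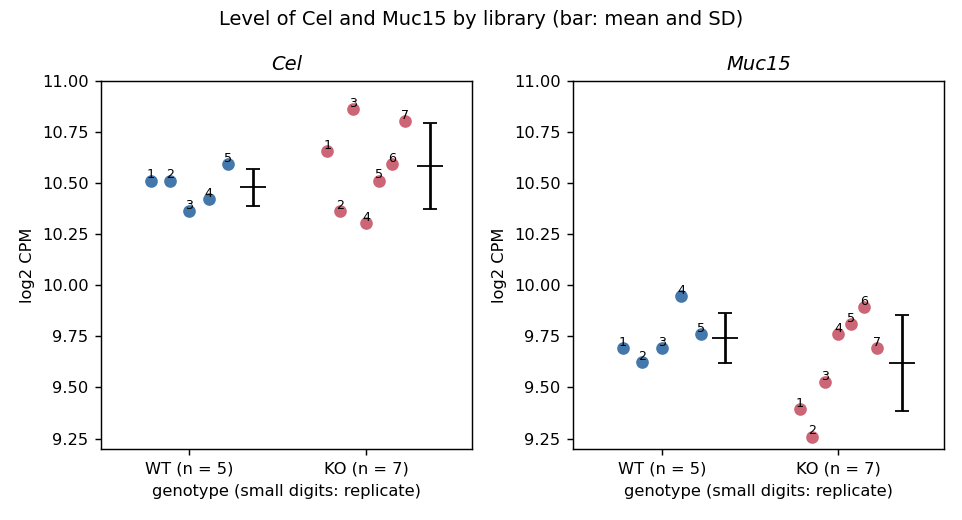
Log2 CPM (vertical axis) of Cel and Muc15 in each WT and KO library (points, with the replicate number above), with the mean and SD of each genotype. The genotypes overlap for both genes, and the KO points spread further than the WT points, with an SD of 0.21 against 0.09 for Cel and 0.23 against 0.12 for Muc15.

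By rank, Cel ran from 27 to 30 in WT and from 23 to 31 in KO, and Muc15 from 38 to 44 in WT and from 39 to 52 in KO. The loss of Btn1a1, which stood above both in every WT library, lifts each by 1 rank in KO. With Btn1a1 left out, the WT ranks were 26 to 29 for Cel and 37 to 43 for Muc15, and the KO ranks were as before. Btn1a1 and Slc34a2, which encodes a sodium-dependent phosphate carrier, were the 2 genes that lay above Cel in all 5 WT and below it in all 7 KO libraries, and no gene did the opposite. Btn1a1 alone fell past Muc15 in this way, and Ltf, the iron-binding lactoferrin, was the 1 gene that passed Muc15 upwards. Cel lay above Muc15 in all 12 libraries.

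The genes whose log2 CPM most resembled that of Cel over the 12 libraries were Ubxn6 (Pearson r = 0.838, Spearman rho = 0.855), Mapkapk3 (r = 0.806, rho = 0.816) and Pigt (r = 0.803, rho = 0.678). For Muc15 they were Gm9794 (r = 0.915, rho = 0.864), Stxbp3 (r = 0.896, rho = 0.938) and Tapt1 (r = 0.895, rho = 0.864). Without the 2 libraries farthest from the member's median, r was 0.649 to 0.719 for Cel and 0.764 to 0.890 for Muc15. These genes were picked as the highest of the whole table and their libraries share the genotype contrast, so the values are a description without a test. The other 8 genes hold too few distinct values for such a measure.

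The third comparison set milk proteins that stand below the first 8 ranks beside these 10. Some of them, such as Lao1, Lalba and Qsox1, stood above Cel and Muc15 in every WT library. Of 16 other milk protein genes, chosen with earlier results of these data known, 6 rose and 1 fell in KO, and 9 did not pass. Their median log2 change was 0.54, and 43.8% were called, against 9.36% of all genes. Ltf rose from 9.52 ± 0.21 to 11.04 ± 0.37 log2 CPM, by 1.51 (SE 0.17, limma adjusted p = 0.000383). In ranks it went from 40 to 51 in WT to 16 to 28 in KO, and the 7 KO values all exceeded the 5 WT values. Wfdc18, a whey-type protein with the same kind of disulfide-rich domain as Wap, rose by 0.95 (SE 0.17, limma adjusted p = 0.00522), from ranks 20 to 27 to ranks 10 to 18, again in 7 of 7 libraries. Wap itself stayed at rank 4, where the gap to rank 5 was 0.63 log2 and that to rank 3 was 0.46.

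Spp1, which encodes osteopontin, rose by 3.52 (SE 0.74, limma adjusted p = 0.0178). It ran from 6.70 to 8.93 log2 CPM in WT (ranks 61 to 338) and from 8.78 to 12.53 in KO (ranks 10 to 65), and 6 of 7 KO values exceeded the highest WT value. In KO replicate 4 it stood at rank 10, 2 ranks below Csn1s2b, at 12.53 against 14.35 log2 CPM. That was the lowest value of Csn1s2b in any library. Lcn2, a lipocalin that binds bacterial siderophores, rose by 2.13 (SE 0.24, limma adjusted p = 0.000841), and Clu, the extracellular chaperone clusterin, rose by 0.95 (SE 0.21, limma adjusted p = 0.0166). Chil1, a chitinase-like protein at -1.54 log2 CPM in WT, rose by 2.06 (SE 0.59, limma adjusted p = 0.0436). Leaving out any WT library or KO replicate 1, 2, 3 or 4 ended that call (adjusted p at most 0.105), and Chil1 did not pass in the authors' deposited table (adjusted p = 0.117).

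Qsox1, a sulfhydryl oxidase that forms disulfide bonds in secreted proteins, fell by 0.61 on the log2 scale (SE 0.16, limma adjusted p = 0.0269), from ranks 15 to 20 in WT to ranks 19 to 34 in KO. Its call ended without WT replicate 1, 2, 4 or 5 or KO replicate 2, adjusted p at most 0.0700. Lalba, which encodes alpha-lactalbumin, the whey protein that makes lactose synthase, did not pass. It stood at 11.97, 11.56, 11.56, 11.97 and 11.36 log2 CPM in WT replicates 1 to 5, and between 11.56 and 12.53 in KO. The difference was 0.19 (SE 0.18, limma adjusted p = 0.523), and its ranks were 12 to 18 in WT and 10 to 16 in KO. Lao1, a milk L-amino acid oxidase, gave -0.21 (SE 0.14, limma adjusted p = 0.363) and Mfge8, a fat globule glycoprotein, -0.30 (SE 0.12, limma adjusted p = 0.136).

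**Figure D3:**
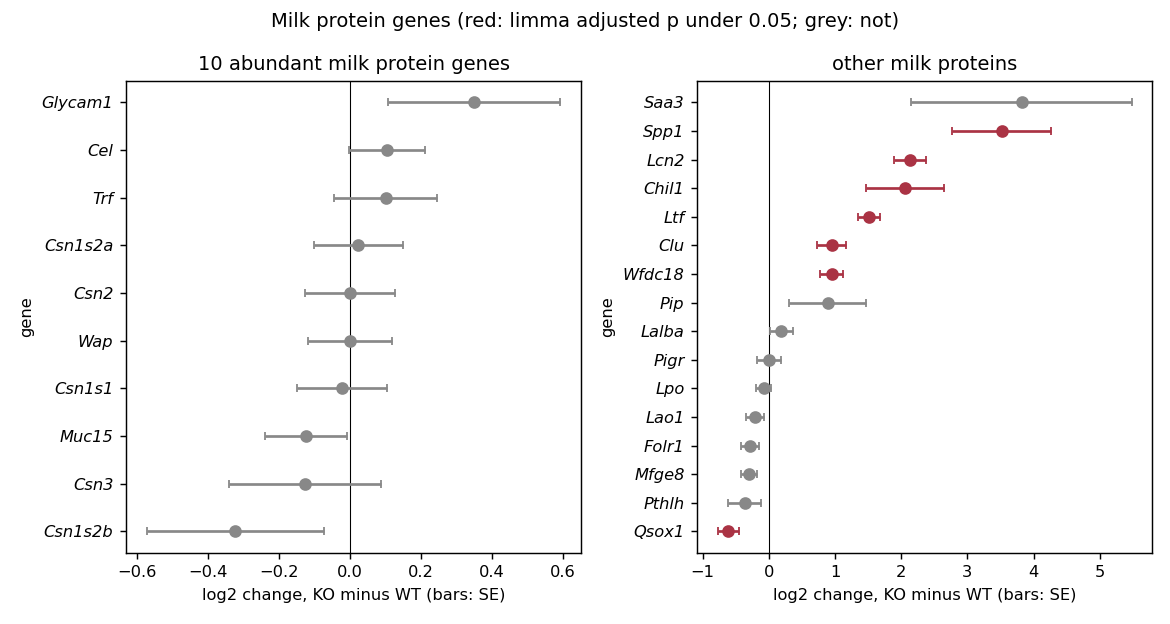
Log2 change of KO against WT with its SE (horizontal axis) for the 10 abundant milk protein genes and for 16 other milk protein genes (vertical axes), red where the adjusted p of limma is under 0.05. None of the 10 is red, and the horizontal scales of the panels differ. Of the 16 others, 6 lie to the right and 1 to the left in red.

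Along the order of WT means, 0 of the first 8 genes passed the test, and their values could change only with their rank. Of the 42 genes at ranks 9 to 50, 3 rose (Wfdc18, Ltf and Clu) and 7 fell (Fasn, Qsox1, Btn1a1, Slc34a2, Acly, Acaca and Plin2). Btn1a1 is the knocked-out gene itself, and 9.36% of all genes passed. Slc34a2 fell by 0.63 (SE 0.11, limma adjusted p = 0.00485). Restricting the fit to day 10 libraries left 3 of the 16 other milk proteins called, all higher, and ended the calls of Spp1, Clu, Chil1, Qsox1, Slc34a2, Fasn and Acly. Of the genes at ranks 9 to 50, Fasn (limma adjusted p = 0.0464) also lost its call without WT replicate 1, 2, 3 or 5 or KO replicate 2, 4, 5 or 7, Acly without WT replicate 1, 2 or 3, and Plin2 without WT replicate 1.

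Markers of cell types were counted beside the 9.36% called of all genes. Of 10 basal and myoepithelial markers 6 rose and 0 fell, and their summed level was 517 to 695 CPM in WT and 582 to 897 CPM in KO. Of 10 macrophage markers 4 rose and 0 fell (54.8 to 71.2 CPM in WT, 61.6 to 91.8 in KO, 6 of 7 KO libraries above all WT libraries). The 10 skeletal muscle markers summed to 70.6 to 492.6 CPM in WT and 104 to 1690 CPM in KO, with 0 called and 0 at an unadjusted p under 0.05 in limma. Of 10 luminal secretory markers 3 rose and 1 fell (2920 to 3342 CPM in WT, 2352 to 3304 in KO, 5 of 7 below all WT libraries). Xdh and Elf5, at 10.80 and 9.30 log2 CPM in WT, weigh most in that sum, and neither passed. Of 9 adipocyte markers 1 rose, of 6 endothelial markers 1 fell, and 0 of 7 fibroblast markers passed. The part of these cell types in the results was not tested. Cel is also a product of the pancreas, and 0 of 9 pancreatic acinar markers had a value in the table.

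The fourth comparison concerned the genes that act on the milk protein genes and on the caseins. Of 19 measured regulators 0 rose, 2 fell and 17 did not pass, with a median log2 change of -0.06. The share called, 10.5%, is near the 9.36% of all genes. Gata3, needed for luminal cell fate, fell by 0.41 (SE 0.10, limma adjusted p = 0.0184), from 3.89 ± 0.11 to 3.48 ± 0.20 log2 CPM, and 6 of 7 KO libraries lay below all WT libraries. The call ended without WT replicate 1 or 2, adjusted p at most 0.0508. Nr3c1, the glucocorticoid receptor, fell by 0.36 (SE 0.10, limma adjusted p = 0.0417), from 6.80 ± 0.18 to 6.43 ± 0.19. Leaving out WT replicate 1, 2, 4 or 5 or KO replicate 1, 2, 3, 4 or 7 ended that call (adjusted p at most 0.106). Both calls ended with day 10 libraries alone.

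The mRNAs of the prolactin receptor, Jak2 and Stat5a did not pass the test, and the activity of this pathway was not measured. Of the 19 regulators, 7 had an unadjusted p under 0.05 in limma. With no share of all genes at that p beside it, this count is not read as an excess. Jak2 gave a difference of 0.32 (SE 0.11, limma adjusted p = 0.0770). Prlr gave a difference of -0.15 (SE 0.13, limma adjusted p = 0.509) and Stat5a one of -0.24 (SE 0.14, limma adjusted p = 0.304). Elf5, a transcription factor of the alveolar lineage that acts beside Stat5, gave -0.25 (SE 0.09, limma adjusted p = 0.114, or 0.0436 without KO replicate 6). Erbb4, a receptor of neuregulins that also acts on Stat5, gave -0.85 (SE 0.26, limma adjusted p = 0.0558), and it passed in the authors' deposited table (adjusted p = 0.0326) and without KO replicate 5 or 6.

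Of 18 genes of casein phosphorylation, glycosylation and folding 0 rose, 2 fell and 16 did not pass, with a median of -0.0025. The share called, 11.1%, is likewise near the 9.36% of all genes. Ero1lb, which reoxidizes disulfide isomerases in the endoplasmic reticulum, fell by 1.18 (SE 0.13, limma adjusted p = 0.000440), from 4.18 ± 0.33 to 3.00 ± 0.18 log2 CPM, with no overlap of the 7 KO and 5 WT values. Furin, a protease that trims secreted proteins, fell by 0.41 (SE 0.11, limma adjusted p = 0.0309). Its call ended without WT replicate 1, 2, 3 or 5 or KO replicate 1 (adjusted p at most 0.0833) and with day 10 libraries alone. Fam20c, the Golgi kinase that phosphorylates caseins, gave -0.28 (SE 0.10, limma adjusted p = 0.0994, or 0.0281 without WT replicate 4). Pdia6, a disulfide isomerase, gave 0.51 (SE 0.15, limma adjusted p = 0.0524), and it passed without WT replicate 1 or KO replicate 5 or 6.

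**Figure D4:**
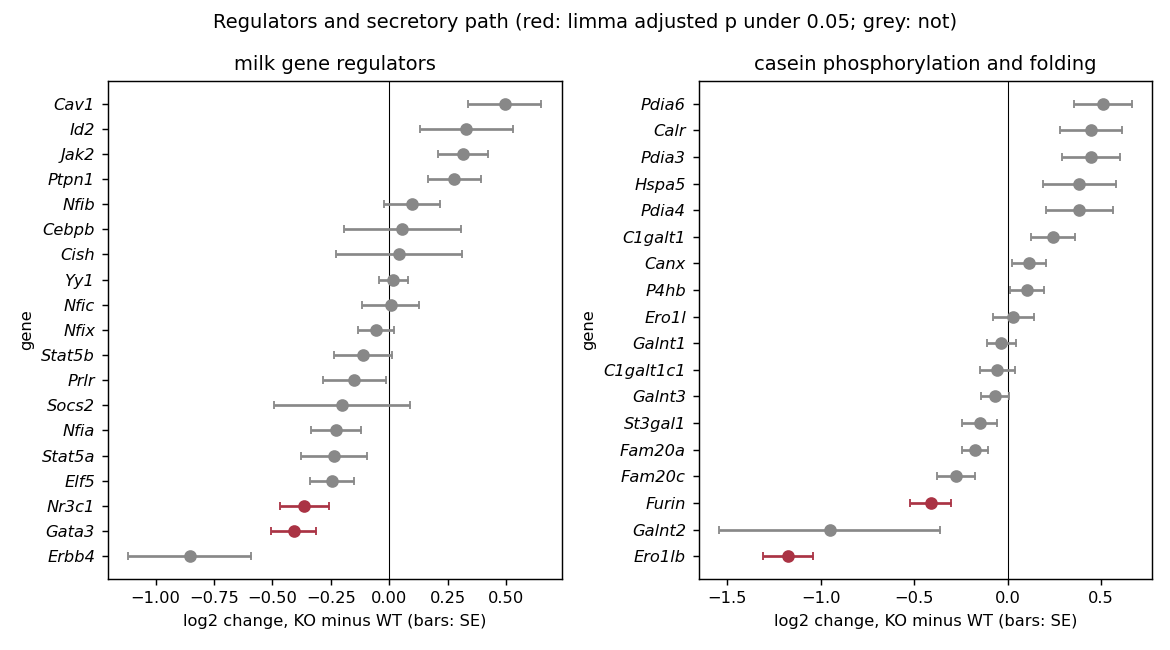
Log2 change of KO against WT with its SE (horizontal axis) for 19 regulators of milk protein genes and 18 genes of casein phosphorylation, glycosylation and folding (vertical axes), red where the adjusted p of limma is under 0.05. Gata3 and Nr3c1 are red in the first panel, and Ero1lb and Furin in the second, all lower in KO.

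Genes that share a function with the non-casein members were counted beside the 9.36% called of all genes. Beside Trf, 1 of 12 measured genes of iron handling rose and 1 fell (16.7% called). Fth1, the ferritin heavy chain, rose by 0.53 (SE 0.16, limma adjusted p = 0.0471), and leaving out WT replicate 1, 2, 4 or 5 or KO replicate 1, 3, 4 or 7 ended its call (adjusted p at most 0.120). Aco1, which as iron regulatory protein binds ferritin mRNA, fell by 0.29 (SE 0.07, limma adjusted p = 0.0184, or 0.0530 without WT replicate 2). Tfrc, the receptor of transferrin, gave -0.12 (SE 0.09, limma adjusted p = 0.409). Fth1 and Aco1 also lost their calls with day 10 libraries alone.

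Beside Glycam1, 0 of 7 measured genes of sialomucin sulfation and glycosylation rose and 1 fell (14.3% called). That was St6galnac2, a sialyltransferase of O-linked glycans, by 0.72 (SE 0.16, limma adjusted p = 0.0163), with 6 of 7 KO libraries below all WT libraries and its call ended with day 10 libraries alone. Beside Cel, 0 of 5 measured genes of secreted lipases and their partners passed, with 3 at an unadjusted p under 0.05 in limma. That count of 3 has no share of all genes beside it and is not read as an excess. Lpl, the lipoprotein lipase, gave -0.30 (SE 0.12, limma adjusted p = 0.111). Beside Muc15, 2 of 5 measured membrane mucins and glycoproteins rose and 1 fell (60% called). Muc1, an apical mucin of the fat globule, fell by 0.59 (SE 0.14, limma adjusted p = 0.0187, or 0.0516 without WT replicate 1), with no overlap between the groups. Muc4, another membrane mucin, rose by 2.13 (SE 0.58, limma adjusted p = 0.0324) from -2.08 log2 CPM. Leaving out WT replicate 1, 2, 4 or 5 or KO replicate 1, 2, 3 or 4 ended that call (adjusted p at most 0.0771), and Muc4 did not pass in the authors' deposited table (adjusted p = 0.1002). The other gene that rose was Mcam, an adhesion glycoprotein, by 0.74 (SE 0.15, limma adjusted p = 0.0103). The calls of Muc1, Muc4 and Mcam ended with day 10 libraries alone.

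The fifth comparison asked how the genes around the caseins stood. Within 1 Mb of a casein gene start, GENCODE M21 lists 38 other protein-coding genes, of which 10 were in the table. Their WT means reached at most 5.15 log2 CPM (Mob1b), so the high level was held by the casein genes and by none of these 10. One of the 10, Odam (87885029 to 87894174), lies within the casein cluster, between Csn1s2b and Csn3. Sult1d1 and Odam, the measured genes nearest to the caseins, stood at 1.62 and 0.37 log2 CPM in WT. In KO they stood at 1.48 and 0.14, differences of -0.15 (SE 0.22, limma adjusted p = 0.709) and -0.23 (SE 0.31, limma adjusted p = 0.681). By limma 0 of the 10 neighbours passed, 1 had an unadjusted p under 0.05 (no share of all genes at that p is given), and the median log2 change was -0.01.

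The neighbour with an unadjusted p under 0.05 was Prol1, which encodes a proline-rich secreted protein. It ran from 1.86 to 3.50 log2 CPM in WT and from -1.92 to 2.52 in KO, with a median of 0.82 and with 5 of 7 KO libraries below all WT libraries. The difference was -2.09 (SE 0.77, limma adjusted p = 0.112), and in the authors' deposited table Prol1 passed (adjusted p = 0.0412). The 10 measured neighbours thus gave 0 calls here and 1 call in the deposited table, as the plot of changes by distance from Csn2 shows.

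**Figure D5:**
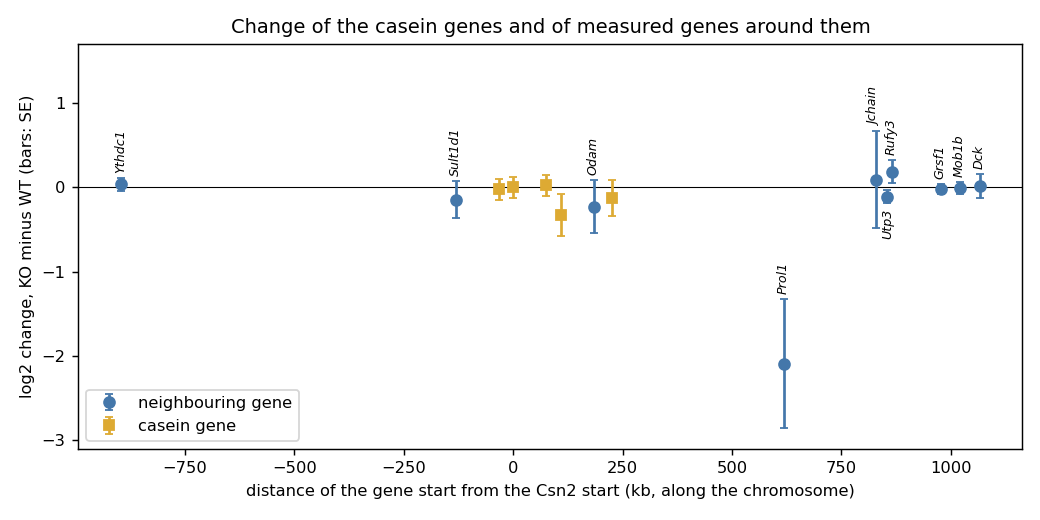
Log2 change of KO against WT with its SE (vertical axis) for the 5 casein genes (squares) and 10 measured neighbouring genes (circles) by distance of their start from the Csn2 start (horizontal axis, kb). Prol1, at -2.09 with an SE of 0.77, lies apart from the other circles, which lie between -0.23 and 0.19.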

How the data were processed

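PolyA RNA of 12 lactating mammary glands was sequenced as pairs, with 1 library per mouse, per the labels. Per the submitters' processing notes the upstream tools were limma 3.34.5, STAR 2.5.2b, RSEM 1.3.0, Trimmomatic 0.33 and bcl2fastq 2.17, and the builds named are mm10 and hg19, with no role given. The authors deposited log2 CPM per library. That these were quantile-normalized is read from the values and is named in no label used here: 67.1% of ranks differ by less than 0.01 log2 across libraries. The deposited table also gives the authors' log2 fold change, a score (the moderated t statistic, the group SD and a signed fold) and p-values, raw and adjusted. The sources used here do not state the gene filter, and no table of raw counts was used here.

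The log2 CPM were fitted by genotype with limma 3.58.1 in R 4.3.3 (eBayes with trend and robust options, two-sided, Benjamini-Hochberg over 11834 genes, threshold 0.05) after a test on simulated data. The members and lists were chosen with earlier results of these data known. The text names the 10 members, genes among the top 20 WT ranks, up to 4 genes per list by adjusted p, casein neighbours and the 3 genes most like Cel and Muc15. Other members of the lists and ranks are named with values only where a result turns on them, chosen after their values were seen. Coordinates are from GENCODE M21, which held 97.1% of the symbols. Alternatives were a replicate block, lactation day, day 10 alone, log2 ranks, median centring, quantile normalization again, a mean of at least 1 log2 CPM, eBayes without options, the authors' statistics and leaving out each library. Figures were drawn with matplotlib 3.10.9 in Python 3.11.15.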

Additional observations from a re-analysis of the deposited data

Results flagged for a closer look

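A single library stood apart from the rest of its group, by the ratio of its gap to the group's range at the 95% level, for 8 of the 80 groups of values that were not all equal. About 1 in 20 such groups is marked by chance, and where values are fixed by rank a single swap is enough to mark one. Csn1s1 in KO replicate 4 stood at 17.00 log2 CPM, against 17.16 in the other 6 KO libraries. Csn1s2a in the same library stood at 17.16, against 17.00. Csn3 in KO replicate 2 stood at 14.35, against 15.57 to 15.90. Trf in KO replicate 1 stood at 15.90, against 15.20. In WT, Btn1a1 in replicate 3 stood at 11.23, against 11.03 in the others, Lcn2 in replicate 3 at 8.01, against 7.18 to 7.32, and Chil1 in replicate 5 at -2.34, against -1.50 to -1.19. Plin2, a lipid droplet protein, stood at 9.69 in KO replicate 3, against 8.96 to 9.17 in the other KO libraries.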

How the results depend on the processing

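The count of 0 called among the 10 genes held under every alternative listed, as did 0 calls among the casein neighbours except in the authors' statistics (1 call). For the first 8 genes the count of 0 says little, since their values are set by rank and most alternatives act on the same ranks. Leaving out 1 library gave 8 to 9 libraries of common order, which follows from the 9 of 12 that share it and tests nothing. A sign turned for Csn3 alone among the 45 genes run under the alternatives (-0.2042 to 0.055 over the libraries left out, 0.055 without KO replicate 2). Of these genes, Muc4 and Chil1 fall below a mean of 1 log2 CPM and were not in that alternative. With day 10 libraries alone, 268 of all genes were called against 1108, 3 of the other milk proteins, 0 regulators and 1 of the casein phosphorylation and folding genes, and 16 of the 23 called genes named lost their call. With eBayes without its options the last 2 lists gave 1 call each. Leaving out 1 library gave 559 to 1327 calls over all genes (559, 644, 725 and 696 when the library left out was WT replicate 1, 2, 3 and 5, and 724 when it was KO replicate 1), 5 to 7 among other milk proteins, 0 to 5 among regulators and 1 to 3 among casein phosphorylation and folding genes. The cause of these shifts was not tested, beyond the fewer libraries in each fit. Replicate numbers do not pair the mice: same-numbered WT and KO libraries correlated at -0.17 to 0.21 after group means were removed, and 2 of 5 correlated best with their own number. A replicate block gave 1090 calls over all genes, 0 among the 10, 9 among other milk proteins and 3 in each of the regulator and casein phosphorylation lists. What depth limits was not tested, since the deposited values give only a rough estimate of it.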
